A study of Mus musculus with 6 samples.

Results

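The respiratory chain subunits encoded in the nucleus were followed in tongue tissue of mice with and without doxycycline (DOX). Genes were taken by symbol: every complex I subunit (Nduf a, b, c, s and v families), the 4 succinate dehydrogenase subunits, the Uqcr genes of complex III, Cox4 to Cox8 of complex IV and the Atp5 genes of ATP synthase (complex V). Assembly factors of the Ndufaf family and Ndufa4l2 were left out. On the array, 84 such genes were represented by 113 of 55681 probes, and a further 22 genes that fit the symbols had no matched probe. Complex I had 36 genes, complex II 4, complex III 8, complex IV 18 (with Ndufa4, a subunit of that complex despite its name) and complex V 17, and Cox7a2l, a factor that joins complexes into supercomplexes, was placed in none.

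Total RNA from tongue was labelled with Cy3 and measured on Agilent SurePrint G3 mouse arrays with a single colour, 3 for mice without treatment (no DOX) and 3 for mice given DOX for 2 weeks. All 6 mice had the C57Bl6 background and carried iDek, a transgene system described as ubiquitous and squamous cell-specific that is meant to induce Dek, a chromatin protein, when DOX is present. The control group thus carries the transgene too. Mice without the transgene are not among the samples analysed here, so what DOX does by itself and what induced Dek does cannot be told apart. The labels used here state no ages.

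The respiratory chain sits in the inner mitochondrial membrane. Complexes I and II pass electrons from NADH and succinate to coenzyme Q, complex III passes them to cytochrome c, complex IV to oxygen, and ATP synthase uses the resulting proton gradient to make ATP. Tongue is largely striated muscle, a tissue rich in mitochondria, beneath a keratinised epithelium. Several complex IV subunits have an isoform used mainly in heart and skeletal muscle beside a ubiquitous one.

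Many nuclear genes of the chain are textbook targets of the factors NRF1, GABPA, ERRalpha and YY1. RefSeq promoters (assembly GRCm38.p6, 250 bases before and 50 after the start) were found for 69 of the 84 genes, 74 promoters in all, and were searched on both strands for fixed motif letters. NRF1 letters (GCGCANGCG) occurred in 28.4% of these promoters in 6.25% of all 32851 promoters of that length and in 8.58% of the 21262 of protein-coding genes. They were in promoters of 20 genes: 8 of the 32 complex I genes with a promoter, 2 of 3 in complex II, 2 of 5 in complex III, 1 of 13 in complex IV and 7 of 15 in complex V. YY1 letters (AAGATGGCG) occurred in 9.46%, against 1.4% of all and 1.83% of protein-coding promoters. Those of ERRalpha (TNAAGGTCA) occurred in 4.05% against 1.28% and 1.03%, those of GABPA (CCGGAAGT) in 6.76% against 3.89% and 5.15%, and the E-box (CACGTG) in 9.46% against 7.15% and 7.84%. None of these 5 motifs contains another. A match of letters describes the sequence and does not show a bound site.

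The 5 promoters below show the range of arrangements, from a gene with NRF1 letters at 2 places to a muscle isoform with none of the motifs. Each is printed 5′ to 3′ along the gene's strand, with motif matches in capitals. Positions count from the first base of the window, and the start follows after 250 bases.
Uqcrc1 promoter, chr9:108936398-108936697, plus strand, NRF1 letters from bases 257, 281 and 282 (the last pair overlap): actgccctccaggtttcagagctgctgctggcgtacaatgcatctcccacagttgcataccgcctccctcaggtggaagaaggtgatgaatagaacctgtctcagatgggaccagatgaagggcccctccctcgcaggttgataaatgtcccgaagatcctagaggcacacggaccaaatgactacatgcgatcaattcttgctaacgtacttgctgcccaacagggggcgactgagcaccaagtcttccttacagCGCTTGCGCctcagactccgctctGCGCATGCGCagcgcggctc
Sdhd promoter, chr9:50603800-50604099, minus strand, NRF1 letters from base 172 and ERRalpha letters from base 287: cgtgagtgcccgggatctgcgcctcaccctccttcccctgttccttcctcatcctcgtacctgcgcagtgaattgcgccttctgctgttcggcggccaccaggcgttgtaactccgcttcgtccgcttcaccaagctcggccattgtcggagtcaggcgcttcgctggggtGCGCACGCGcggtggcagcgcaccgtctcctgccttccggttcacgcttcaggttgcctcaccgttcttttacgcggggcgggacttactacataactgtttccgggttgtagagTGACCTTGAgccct
Ndufs6 promoter, chr13:73328433-73328732, minus strand, NRF1 letters from base 236 and YY1 letters from base 284: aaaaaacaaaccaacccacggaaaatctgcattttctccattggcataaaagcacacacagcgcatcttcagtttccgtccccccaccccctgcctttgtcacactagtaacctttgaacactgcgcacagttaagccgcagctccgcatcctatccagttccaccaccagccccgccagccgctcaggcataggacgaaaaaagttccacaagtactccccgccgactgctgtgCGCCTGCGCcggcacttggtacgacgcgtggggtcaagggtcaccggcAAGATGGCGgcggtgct
Cox8a promoter, chr19:7217567-7217866, minus strand, GABPA letters from bases 245 and 282: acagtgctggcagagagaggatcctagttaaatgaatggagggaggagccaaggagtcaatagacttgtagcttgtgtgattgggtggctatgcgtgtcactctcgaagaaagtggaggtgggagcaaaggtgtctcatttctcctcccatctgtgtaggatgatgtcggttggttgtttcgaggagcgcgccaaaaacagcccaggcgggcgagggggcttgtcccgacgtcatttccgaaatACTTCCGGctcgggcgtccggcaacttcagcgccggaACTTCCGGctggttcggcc
Cox8b promoter, chr7:140900397-140900696, minus strand, with no match: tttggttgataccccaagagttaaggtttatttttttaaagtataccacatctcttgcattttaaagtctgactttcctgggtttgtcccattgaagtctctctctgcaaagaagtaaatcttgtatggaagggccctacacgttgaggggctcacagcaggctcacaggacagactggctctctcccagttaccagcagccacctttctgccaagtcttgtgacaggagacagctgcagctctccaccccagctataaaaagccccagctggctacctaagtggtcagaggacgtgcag

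Between 56.0% and 58.3% of probes were well above background on an array and 0 spots were saturated. All 13 fast skeletal muscle genes and all 12 keratinocyte genes examined were detected, as were 9 of 10 slow muscle genes. Detection alone does not identify the tissue. It also held for 8 of 8 endothelial, 8 of 8 fibroblast, 7 of 7 Schwann cell and 4 of 5 brown adipocyte genes. Levels of the muscle and keratinocyte markers differed between arrays within a group. The summed linear signal, relative to the array's 75th percentile, ran from 3979 to 5256 without DOX and from 4192 to 5329 with DOX for fast muscle, from 292 to 451 and 300.2 to 442 for slow muscle, and from 1943 to 2786 and 2374 to 3051 for keratinocytes. Over 9 detected salivary gland markers, the mean log2 level in no DOX replicate 2 was -2.95 relative to their 6-array mean. It was 0.04 and 0.085 above it in the other no DOX arrays and 0.743 to 1.33 above it with DOX. Single markers differed in this: in no DOX replicates 1 to 3, Prb1 read 6.07, -0.89 and 7.88, while Muc5b read 10.32, 10.42 and 10.27.

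RNA of respiratory chain genes differed little between the groups, and no gene passed the test in either direction. Of the 84 genes, 82 were detected, with a probe marked well above background throughout the 3 arrays of either group; Cox7b2 and Cox8c, a pair of complex IV isoform genes, were not well above background on any array. Among the 82 tested, 0 rose and 0 fell (limma, adjusted p under 0.05 over all tested probes), where the rise was called for 0.278% and the fall for 0.126% of everything tested (26258 genes and probes without a name). At an unadjusted p under 0.05 there were 4 of 82 genes (4.88%) against 18.6% of everything tested. The smallest adjusted p of a respiratory chain gene was 0.140 (limma), and other settings gave 0 calls as well, with smallest values from 0.0742 to 0.306 (limma).

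The median log2 change, DOX minus no DOX, was 0.04 over the 82 genes, a factor of 1.03, beside -0.01 over everything tested. It was positive in 61 genes (74.4%) and negative in 21, whereas 49.0% of everything tested was positive. This lean depended on the scaling and on single arrays: quantile normalization left 39 of 82 genes (47.6%) positive with a median of -0.005, and array weights left 37 (45.1%). Without DOX replicate 2 the median was -0.04 with 23 genes positive, without no DOX replicate 3 it was -0.02 with 37, and without DOX replicate 3 or no DOX replicate 2 it was 0.13 with 74 and 0.11 with 75.

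The changes were narrow beside those of everything tested, a set not matched for signal level. This was not particular to the chain. The 10 tested carriers of ATP, phosphate and protons changed by at most 0.20 (Vdac2). The 14 genes of the tricarboxylic acid cycle changed by at most 0.32 (Sucla2), while complex IV assembly factors reached 0.62 (Cox18). Of the 82 genes, 57 (69.5%) differed by less than 0.1 on the log2 scale and 77 (93.9%) by less than 0.2, while 31.2% and 54.0% of everything tested did so. The 95% interval of the change stayed within 1 log2 unit of 0, a 2-fold change, for all 82 genes, against 83.8% of everything tested. It stayed within 0.5, a 1.41-fold change, for 67 genes (81.7%) against 39.2%. By the brightest probe of each gene, the outermost bounds were 1.6-fold lower for Cox6b2 and 1.81-fold higher for Ndufab1. Standard errors were similar, with a median of 0.141 for the respiratory chain genes and 0.151 for everything tested. In whole tissue, fewer cells of a type and less RNA per cell cannot be told apart.

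**Figure D1:**
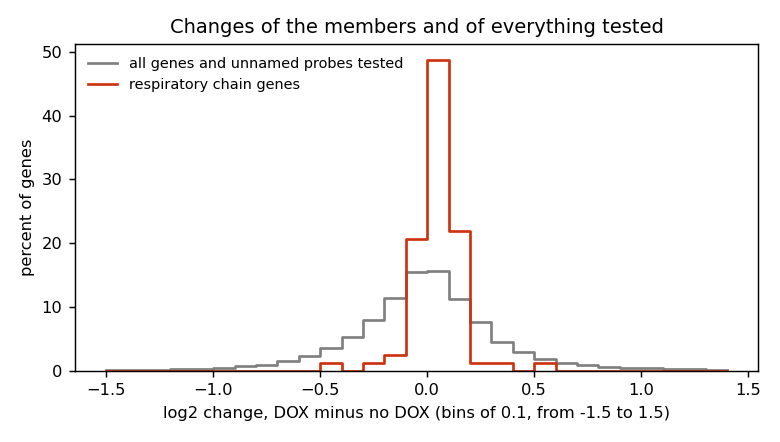
Percent of genes by log2 change (DOX minus no DOX, bins of 0.1) for the 82 respiratory chain genes tested (red) and all 26258 genes and unnamed probes tested (grey). The respiratory chain genes crowd around 0, with 93.9% within 0.2 of it against 54.0% of everything tested.

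**Figure D2:**
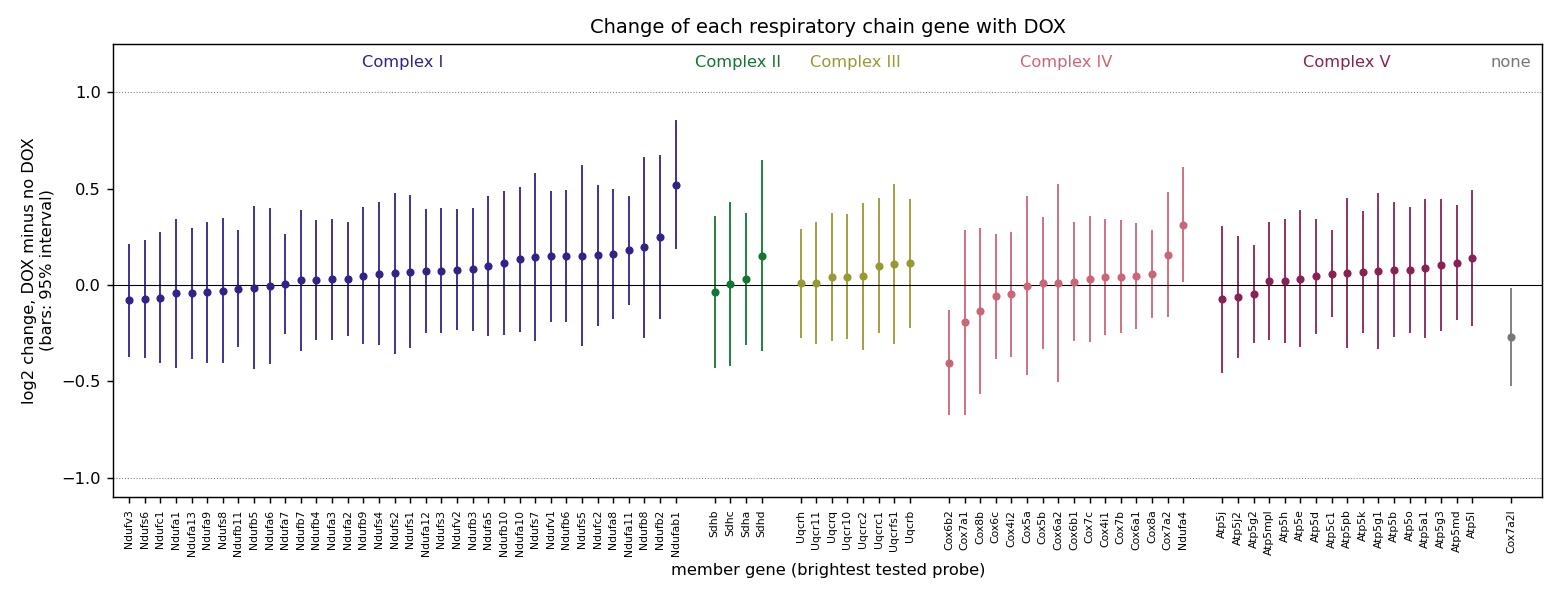
Log2 change (DOX minus no DOX) of each tested gene by its brightest probe, ordered within complexes I to V, with 95% intervals from limma (3 arrays a group); the dotted lines mark 1 log2 unit. All intervals lie inside the dotted lines, and those of Ndufab1, Ndufa4, Cox6b2 and Cox7a2l do not include 0.

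The 5 complexes had medians close to each other: 0.06 for complex I (26 genes higher, 10 lower), 0.02 for complex II (3 and 1), 0.04 for complex III (8 and 0), 0.01 for complex IV (10 and 6) and 0.06 for complex V (14 and 3). Each complex had 0 genes past the test. These medians lay within 0.1 of the median of everything tested, and their order was not tested. The sign of the complex I, II, III and IV medians turned with array weights or without no DOX replicate 3, that of all 5 without DOX replicate 2, that of complexes II and IV with quantile normalization, and that of complex IV without DOX replicate 1.

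Complex I takes electrons from NADH through a core of 7 nuclear subunits that hold its flavin and iron-sulfur centres. These core genes had a median change of 0.07, from -0.03 for Ndufs8 to 0.15 for Ndufv1, and 6 of 7 were positive (3 of 7 without DOX replicate 2). The 29 accessory genes, which stabilise and assemble the complex, had a median of 0.05, with 20 positive, and of -0.008 with array weights. Ndufab1, the mitochondrial acyl carrier protein that is also an accessory subunit, lay at the upper end.

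Ndufab1 had normalised log2 signals (relative to the 75th percentile of the array) of 0.35, 0.35 and 0.41 without DOX and 1.16, 0.76 and 0.74 with DOX. All DOX arrays lay above all no DOX arrays, as 12.7% of everything tested did, with DOX replicate 1 well above the other two. The difference was 0.52 ± 0.14 (SE, n = 3 and 3), a factor of 1.43, without passing the test (limma, adjusted p = 0.140). Across 17 other settings it lay between 0.38 and 0.79. Because the groups did not overlap, leaving out 1 array could not turn its sign, and several settings altered only the test.

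Ndufa11, an accessory subunit of the membrane arm, read 4.25, 4.36 and 4.24 without DOX and 4.44, 4.63 and 4.32 with DOX. The groups overlapped by a small margin, and the difference was 0.18 ± 0.12 (SE, n = 3 and 3; limma, adjusted p = 0.467). Ndufb2, another membrane-arm subunit, read 4.85, 5.44 and 5.03 against 5.38, 5.5 and 5.20. Its difference of 0.25 ± 0.18 (SE) came with overlapping groups.

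Ndufv3, a small subunit of the electron input module, was the lowest of the complex I genes by its brighter probe, which read 6.87, 6.98 and 6.73 without DOX and 6.69, 6.94 and 6.72 with DOX. The groups overlapped and the difference was -0.08 ± 0.12 (SE). A second, dimmer Ndufv3 probe read 0.42, 0.45 and 0.55 without DOX and -0.14, 0.19 and 0.01 with DOX, with no overlap. This probe differed by -0.46 ± 0.12 (SE, n = 3 and 3) and was not called (limma, adjusted p = 0.138). The probes were 0.375 apart, the widest gap among the 22 respiratory chain genes with several tested probes. The part of the transcript that each probe reads was not analysed here. In 4 of the 22 genes (Atp5k, Cox7c, Ndufb5 and Sdhb) the probes differed in sign, with gaps from 0.0852 to 0.110.

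Complex II, succinate dehydrogenase, also belongs to the tricarboxylic acid cycle and is encoded wholly in the nucleus. Sdha, its flavoprotein, read 5.07, 5.18 and 4.80 without DOX and 5.09, 5.18 and 4.88 with DOX, a difference of 0.03 ± 0.14 (SE). Sdhb, the iron-sulfur subunit, read 7.49, 7.76 and 7.25 against 7.41, 7.64 and 7.32, a difference of -0.04 ± 0.16 (SE). In both genes the spread among arrays of a group was several times the difference between groups.

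The other subunits are the membrane anchors. Sdhc read 5.13, 5.33 and 4.88 without DOX and 5.11, 5.38 and 4.87 with DOX, a difference of 0.00 ± 0.18 (SE). Sdhd, whose promoter carried NRF1 and ERRalpha letters, read 5.88, 6.08 and 5.53 against 5.90, 6.32 and 5.72, a difference of 0.15 ± 0.21 (SE), smaller than the SD within either group. In all 4 subunits replicate 2 was the highest and replicate 3 the lowest array of each group.

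Complex III had positive changes in all 8 genes with the 75th percentile scaling, none past the test. The core proteins and the Rieske protein, 3 genes, had a median of 0.10 and the 5 small subunits 0.04. These medians were 0.04 and -0.002 with quantile normalization, 0.007 and -0.015 without no DOX replicate 3, and -0.011 and -0.048 without DOX replicate 2. Uqcrc1, a core protein, read 5.37, 5.59 and 5.29 without DOX and 5.52, 5.71 and 5.31 with DOX, a difference of 0.10 ± 0.15 (SE). Uqcrfs1, the Rieske iron-sulfur protein that hands on electrons, read 6.24, 6.46 and 6.04 against 6.39, 6.59 and 6.08, a difference of 0.11 ± 0.17 (SE). Groups overlapped for both.

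Uqcrb, a small subunit near the coenzyme Q site, read 6.97, 7.18 and 6.89 without DOX and 7.12, 7.32 and 6.95 with DOX, a difference of 0.11 ± 0.14 (SE). Uqcrh, the hinge protein at the cytochrome c contact, had the smallest change of complex III. It read 7.79, 7.95 and 7.73 without DOX and 7.79, 7.98 and 7.73 with DOX, a difference of 0.01 ± 0.12 (SE), with the arrays of the groups almost superimposed.

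Complex IV, cytochrome c oxidase, had changes from -0.40 to 0.31, the widest range of the 5 complexes. The 11 ubiquitous subunits had a median of 0.04, with 9 positive, and of -0.014 with quantile normalization. The 5 detected tissue isoforms (Cox4i2, Cox6a2, Cox6b2, Cox7a1 and Cox8b) had a median of -0.14, with 1 positive, and none passed the test. That median was -0.19 with quantile normalization and 0.01 without DOX replicate 3, where 3 of the 5 were positive.

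Ndufa4 had log2 signals of 6.5, 6.75 and 6.5 without DOX and 7.01, 6.92 and 6.76 with DOX. The groups did not overlap, though DOX replicate 3 was only just above no DOX replicate 2. The difference was 0.31 ± 0.12 (SE, n = 3 and 3), a factor of 1.24, and did not pass (limma, adjusted p = 0.247).

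Cox6b2, the testis form of subunit VIb, read -0.86, -0.89 and -0.70 without DOX and -1.14, -1.16 and -1.35 with DOX. Every DOX array lay below every no DOX array, as for 12.6% of everything tested. The difference was -0.40 ± 0.11 (SE, n = 3 and 3), a factor of 0.756, and did not pass (limma, adjusted p = 0.150). In 17 other settings the difference lay between -0.44 and -0.25. Here too, leaving out 1 array could not turn the sign of groups without overlap, and several settings altered only the test.

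Cox7a2l, named after its values were seen, had 3 probes. The brightest read 6.47, 6.60 and 6.56 without DOX and 6.17, 6.38 and 6.27 with DOX, with no overlap. The difference was -0.27 ± 0.11 (SE, n = 3 and 3) and fell short of the threshold (limma, adjusted p = 0.244), and the remaining probes gave -0.27 each. Thus, by the brightest probe, 2 of 82 genes were higher with DOX on all 3 arrays without overlap and 2 lower, against 12.7% and 12.6% of everything tested.

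**Figure D3:**
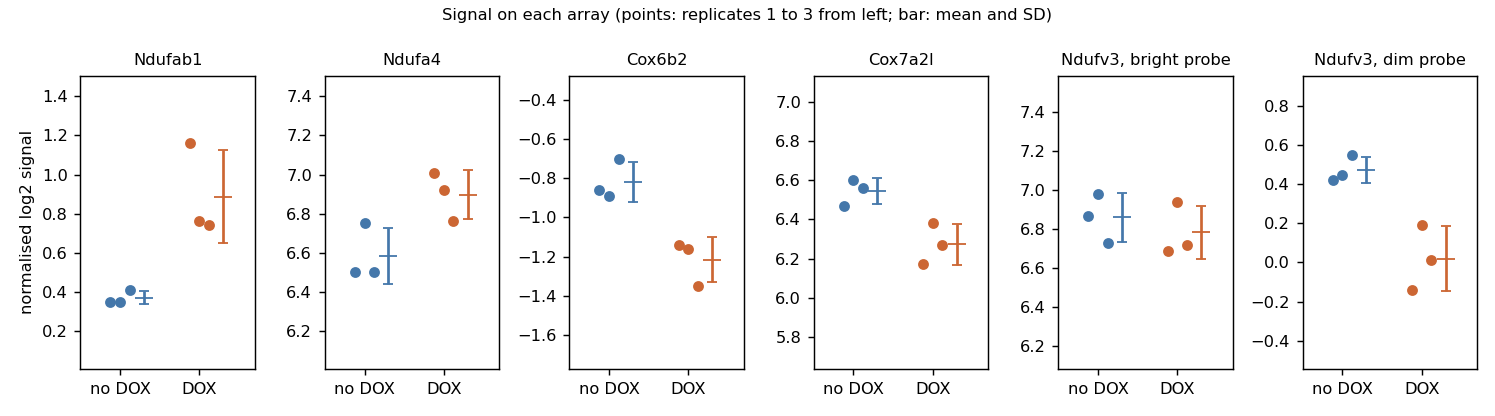
Normalised log2 signal on each of 3 no DOX (blue) and 3 DOX (orange) arrays, with mean and SD beside the points. Shown are the 4 genes whose groups did not overlap by the brightest probe, and both Ndufv3 probes. Each panel spans the same number of log2 units. Ndufab1 and Ndufa4 sit higher with DOX, Cox6b2 and Cox7a2l lower, and the Ndufv3 probes differ.

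Isoform pairs of complex IV were compared within each array, as the log2 difference between the tissue isoform and the ubiquitous isoform, centred over the 6 arrays because levels of different probes are not comparable. The shift of Cox7a1, the heart and skeletal muscle isoform, against Cox7a2 was 0.19, 0.21 and 0.12 without DOX and -0.19, 0.02 and -0.35 with DOX. These groups did not overlap, and the balance was lower by 0.35 with DOX, with the smallest p that 3 against 3 arrays can give (exact two-sided permutation test over 20 assignments, p = 0.1; Benjamini-Hochberg over 5 pairs, 0.25).

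Neither partner passed the test alone. Cox7a1 read 8.24, 8.51 and 8.13 without DOX and 8.09, 8.44 and 7.76 with DOX, a difference of -0.19 ± 0.20 (SE). Cox7a2 read 5.94, 6.20 and 5.91 against 6.18, 6.33 and 6.01, a difference of 0.16 ± 0.14 (SE). Groups overlapped for both genes, so only their balance within an array separated the groups.

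The testis form Cox6b2 against Cox6b1 likewise had no overlap, with 0.25, -0.02 and 0.40 without DOX and -0.17, -0.29 and -0.17 with DOX. The balance was lower by 0.42 with DOX (exact permutation p = 0.1; adjusted over 5 pairs, 0.25), and by 0.28 with normexp background correction. Cox6b1 itself differed by 0.02 ± 0.13 (SE), so this balance carries the difference of Cox6b2.

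In the 3 other pairs the groups overlapped. The muscle isoform Cox8b against Cox8a shifted by -0.19 (exact permutation p = 0.5), and this value rested on single arrays. Leaving out DOX replicate 3 gave -0.01 and leaving out DOX replicate 2 gave -0.36, while among the untreated mice replicate 2 left out gave -0.08 and replicate 3 left out -0.30. Cox8b itself read 7.93, 8.17 and 7.78 without DOX and 7.84, 8.10 and 7.53 with DOX. By its brightest probe Cox8a was steady, at 7.42, 7.43 and 7.48 without DOX and 7.48, 7.45 and 7.57 with DOX. A dimmer Cox8a probe read 6.71, 6.70 and 6.63 without DOX and 6.81, 6.73 and 6.82 with DOX. Its difference was 0.11 ± 0.09 (SE), higher without overlap, as 12.7% of everything tested was, and it did not pass the test. The promoters shown above differ between these partners, GABPA letters being found in that of Cox8a alone.

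For the muscle isoform Cox6a2 against Cox6a1 the shift was -0.03 (exact permutation p = 1). Cox6a2 had the widest spread of the pair, reading 8.75, 8.99 and 8.55 without DOX and 8.80, 9.13 and 8.39 with DOX, while Cox6a1 read 8.43, 8.40 and 8.52 against 8.58, 8.33 and 8.58. For the lung isoform Cox4i2 against Cox4i1 the shift was -0.09 (exact permutation p = 0.4), and ranged from -0.21 to -0.02 when replicate 2 or replicate 3 of the untreated mice was left out. All 5 shifts were negative with all 6 arrays, though that of Cox6a2 was 0.20 without DOX replicate 3 and 0.11 without no DOX replicate 2. The slow muscle markers had a median change of -0.15 (3 higher, 6 lower) and the fast muscle markers one of 0.09 (9 higher, 4 lower). The part of muscle content in the isoform balance was not tested.

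**Figure D4:**
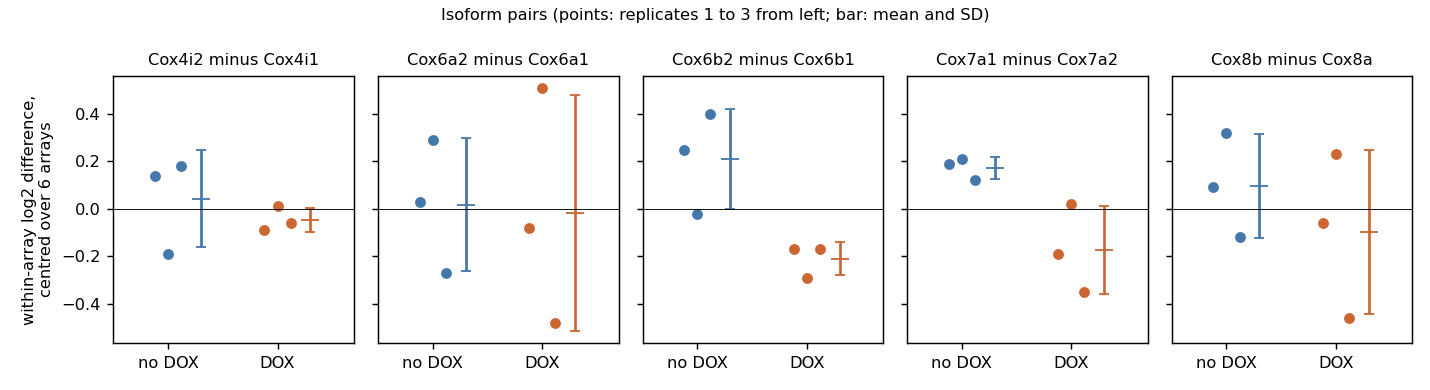
Within-array log2 difference between a tissue isoform and its ubiquitous partner, centred over 6 arrays, for 3 no DOX (blue) and 3 DOX (orange) arrays, with mean and SD. Points of the groups do not overlap for Cox6b2 minus Cox6b1 and for Cox7a1 minus Cox7a2, and overlap in the 3 other pairs.

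Complex V, ATP synthase, turns the proton gradient into ATP. By the brightest probe, the 95% interval of all 17 genes lay within 0.5 log2 units, while the other Atp5l probes had upper bounds from 0.581 to 0.616. The 5 genes of the catalytic F1 head had changes from 0.03 (Atp5e) to 0.09 (Atp5a1), the 4 of the peripheral stalk from -0.08 (Atp5j) to 0.08 (Atp5o), and the 5 other membrane subunits from -0.06 (Atp5j2) to 0.14 (Atp5l). None passed the test.

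The proton-turned c-ring is made of 1 protein encoded by 3 genes. Atp5g1 read 8.21, 8.23 and 8.02 without DOX and 8.17, 8.55 and 7.96 with DOX, a difference of 0.07 ± 0.17 (SE). Atp5g2 read 7.74, 7.86 and 7.68 against 7.71, 7.80 and 7.63, a difference of -0.05 ± 0.11 (SE). Atp5g3 read 7.91, 8.15 and 7.95 against 8.15, 8.29 and 7.88, a difference of 0.10 ± 0.14 (SE). Groups overlapped for all 3 genes.

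Atp5l, subunit g, which helps pair ATP synthases into dimers, had 5 probes. The brightest read 7.60, 7.76 and 7.40 without DOX and 7.75, 7.90 and 7.53 with DOX, a difference of 0.14 ± 0.15 (SE), the smallest of the 5. The other probes gave 0.22 to 0.25, so the value printed for this gene depends on the probe. Atp5md, a small membrane subunit, read 6.75, 6.75 and 6.59 against 6.73, 7 and 6.69, a difference of 0.11 ± 0.12 (SE). Atp5j, coupling factor 6 of the stalk, had the lowest change of the complex, with 6.38, 6.60 and 6.20 against 6.21, 6.56 and 6.18.

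Arrays of the same group differed in these genes in an order that many of them shared, a pattern noticed after the values were seen. The mean over the 82 genes, each relative to its own 6-array mean, was -0.049, 0.123 and -0.141 in no DOX replicates 1 to 3 and 0.026, 0.2 and -0.159 in DOX replicates 1 to 3. The range within a group was 0.265 and 0.359, and the difference between group means 0.044. These are unlike measures, and a range over 3 arrays tends to be the larger. Over everything tested the ranges were 0.009 and 0.006 and the difference -0.002. Replicate 2 was the highest array of both groups in 71 of 82 genes (86.6%), against 14.8% of everything tested. It was the highest and replicate 3 the lowest in both groups in 60 (73.2%), against 8.02%.

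This ordering held in 28 of 36 genes of complex I, 4 of 4 of complex II, 8 of 8 of complex III, 8 of 16 of complex IV and 12 of 17 of complex V. Genes in which replicate 2 was not the highest of both groups were Ndufab1, Ndufb8, Ndufv2, Cox4i2, Cox5b, Cox6a1, Cox6b2, Cox8a, Ndufa4, Atp5k and Atp5md. They include 3 of the 4 genes whose groups did not overlap by the brightest probe. The labels do not say what arrays with the same replicate number share.

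Muscle markers moved with the arrays in the same way. Replicate 2 was highest in both groups in 12 of 13 fast muscle genes, 7 of 9 slow muscle genes and all 14 genes of the tricarboxylic acid cycle tested. This was not particular to muscle, as it held in 7 of 8 adipocyte and 5 of 8 endothelial genes, against 14.8% of everything tested. It held in 2 of 8 immune and 1 of 8 fibroblast genes, and in 0 of 12 keratinocyte, 0 of 9 salivary gland, 0 of 7 Schwann cell and 0 of 4 brown adipocyte genes. The mean of the fast muscle list was -0.069, 0.353 and -0.412 without DOX and 0.01, 0.263 and -0.145 with DOX. That of the keratinocyte list was -0.442, -0.031 and 0.301 without DOX and 0.267, -0.057 and -0.038 with DOX. Between groups, the median change was 0.09 for fast muscle, -0.15 for slow muscle and 0.02 for keratinocyte genes, with 0 calls in each. In the other marker lists (adipocyte, brown adipocyte, salivary gland, immune, endothelial, fibroblast and Schwann cell), 2 genes fell, the adipocyte receptor gene Adrb3 and the T cell gene Cd8a, the latter well above background on 3 of 6 arrays. Of the marker lists, salivary gland had the largest median change: 6 of 9 were higher with DOX, with a median change of 2.55. Of these 9, 5 had an unadjusted p under 0.05 in limma, as did 18.6% of everything tested, but 0 passed after adjustment. Bpifa2, a salivary secreted protein, differed by 6.51 (SE 1.64; limma, adjusted p = 0.129) and Bhlha15, a secretory cell factor, by 1.82 (SE 0.28; limma, adjusted p = 0.0648). Both were higher without overlap, as 12.7% of everything tested was, while Klk1 was lower by a wide and overlapping margin. The parts of muscle and of salivary gland content in the respiratory chain values were not tested.

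**Figure D5:**
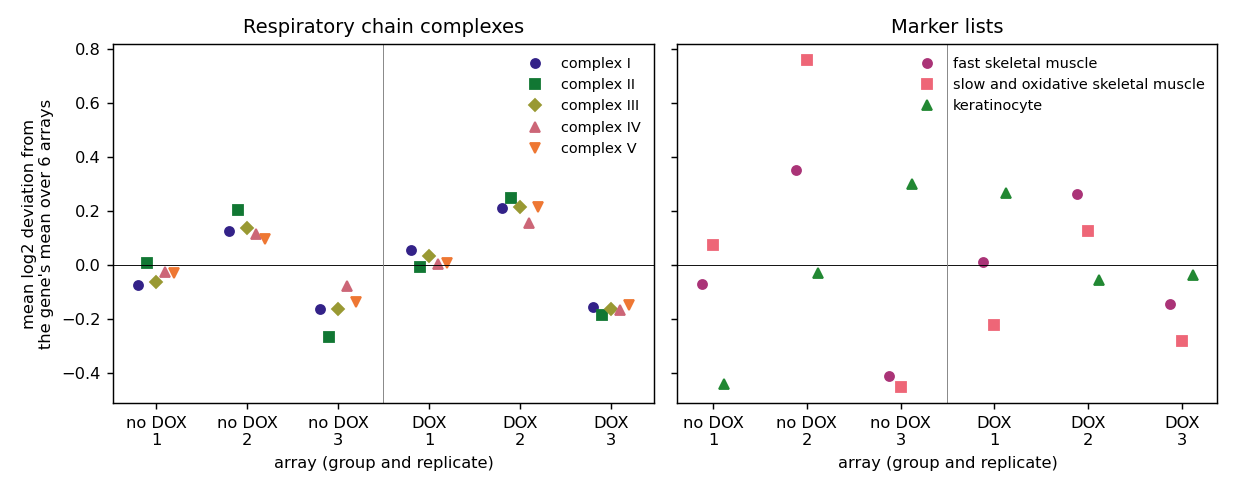
Mean log2 deviation from each gene's 6-array mean on the 3 no DOX and 3 DOX arrays, for complexes I to V (left) and for fast muscle, slow muscle and keratinocyte markers (right). All 5 complexes are highest on replicate 2 of each group and lowest on replicate 3, as the fast muscle markers are, while the keratinocyte markers follow another order.

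Genes that serve the chain gave the same count, with 0 rising and 0 falling in each of 8 further lists. Cytochrome c itself (Cycs) differed by 0.19 ± 0.18 (SE), its heme lyase Hccs by -0.16 ± 0.16 (SE) and Cyc1, the cytochrome of complex III, by 0.17 ± 0.17 (SE), the 3 tested of 4 listed. All 17 complex I assembly factors were tested, with a median of 0.11. Ndufaf4 read 2.5, 2.81 and 2.52 without DOX and 3.43, 3.26 and 2.81 with DOX, a difference of 0.56 ± 0.19 (SE; limma, adjusted p = 0.194). Ndufaf2 differed by 0.34 ± 0.10 (SE; limma, adjusted p = 0.158). Groups did not overlap for either gene, although the highest no DOX and the lowest DOX value of Ndufaf4 both round to 2.81. Both genes were named for the smallest p of their list, and 12.7% of everything tested likewise lay higher without overlap.

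Of 23 complex IV assembly factors 20 were tested, with a median of 0.03. Cox18, which inserts a subunit into the membrane, read 0.30, 0.32 and 0.33 without DOX and 1.15, 0.64 and 1.04 with DOX, a difference of 0.62 ± 0.15 (SE; limma, adjusted p = 0.121). Taco1, a translation activator of a mitochondrial subunit, differed by 0.36 ± 0.15 (SE; limma, adjusted p = 0.251). The 10 tested of 12 factors for complexes II, III and V had a median of 0.11, with Uqcc3 at -0.28 ± 0.11 (SE) and Sdhaf3 at 0.26 ± 0.13 (SE).

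Coenzyme Q synthesis, 12 of 13 genes tested, had a median of 0.11. Pdss1, which starts its side chain, read -0.12, -0.13 and -0.28 without DOX and 0.54, 0.56 and 0.14 with DOX, a difference of 0.59 ± 0.15 (SE; limma, adjusted p = 0.127). Coq4 differed by 0.23 ± 0.09 (SE). The tricarboxylic acid cycle, 14 genes, had a median of 0.06, with Sucla2 at 0.32 ± 0.18 (SE) and Dld at 0.23 ± 0.16 (SE). The carriers of ATP, phosphate and protons, 10 of 11 tested, had a median of 0.06, with Slc25a5 at 0.19 ± 0.13 (SE) and Vdac2 at 0.20 ± 0.15 (SE). The 13 genes encoded by mitochondrial DNA had no matched probe and were not analysed here.

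Regulators of respiratory genes, 17 tested, had a median of 0.10. Pprc1, a coactivator of the PGC-1 family, read -1.71, -1.54 and -1.49 without DOX and -0.85, -1.34 and -1.05 with DOX, a difference of 0.50 ± 0.15 (SE; limma, adjusted p = 0.165). Ppargc1b, a relative of it, read -0.70, -0.68 and -0.96 against -1.37, -1.06 and -1.67, a difference of -0.58 ± 0.18 (SE; limma, adjusted p = 0.172). Both were named for the smallest p of the list, had groups that did not overlap, and did not pass. Of everything tested, 12.7% lay higher and 12.6% lower with DOX without overlap.

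Ppargc1a, which encodes the PGC-1alpha coactivator of mitochondrial genes and was named after its values were seen, read 2.43, 2.34 and 1.74 without DOX and 3.02, 3.30 and 2.47 with DOX. The difference was 0.75 ± 0.27 (SE; limma, adjusted p = 0.214), with DOX replicate 3 just above no DOX replicate 1. The factors whose letters were searched in the promoters, Nrf1, Gabpa, Yy1 and Esrra (which encodes ERRalpha), differed by 0.15 ± 0.10, -0.14 ± 0.11, 0.01 ± 0.11 and 0.15 ± 0.15 (SE), none past the test.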

How the data were processed

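The deposited scanner files hold a linear intensity per spot, background-subtracted in the processed signal column and produced with Agilent Feature Extraction (version 11.5.1.1 in the submitters' processing notes), per the file headers. The deposited series value table holds the same intensity multiplied by 1 factor per array (3.70 to 3.99), per a comparison with the deposited scanner values, and the sources used here do not explain the factors. Groups came from the treatment label, and titles number the replicates. The labels speak of separate treated mice, and p-values measure the spread between these samples.

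Outlier spots (146 to 195 per array) were left out, log2 processed signals were averaged per probe, and the 75th percentile of each array was subtracted. Accessions were named through a RefSeq table of GRCm38.p6 (28325 probes with 1 symbol, 27356 without). A probe was tested if marked well above background throughout the 3 arrays of either group (30934 probes), and the brightest stood for a gene. limma 3.58.1 in R 4.3.3 (lmFit, eBayes, two-sided) was adjusted by Benjamini-Hochberg over all tested probes, with a threshold of 0.05; ± SE is that of the fit. It was tested on simulated data first. All 6 arrays lay on 1 slide. Over all tested probes, same-numbered arrays of the groups did not deviate together (correlations of -0.115, -0.009 and 0.010), so the numbers were not taken as pairs. In the respiratory chain genes they did share an order, with replicate 2 highest and replicate 3 lowest in both groups in 73.2% of genes. A fit with a replicate block is given below.

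The members and lists were chosen with earlier results of these data known. Named genes were, in each complex, the 3 with the smallest p and the largest rise and fall, then complex II, the isoform pairs, the c-ring genes and the 2 smallest p of each further list. Cox7a2l, Ppargc1a, the subunit groupings (core, head, stalk, tissue isoforms) with their end members, the regulators Nrf1, Gabpa, Yy1 and Esrra, and the genes at odds with the array ordering were chosen after values were seen.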

Additional observations from a re-analysis of the deposited data

How the results depend on the processing

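Of 19 alternatives to the processing, each one that gave calls gave 0 in either direction for respiratory chain genes. At an adjusted p under 0.10 with the other settings kept there were 0 as well. The median of the genes and of each complex moved by less than the SD between array means within a group. Over all the genes that SD was 0.159, larger than the median itself, so medians that changed sign also met this limit. The median over the genes lay between -0.01 with array weights and 0.04 with normexp background correction, the deposited value table or the mean of all tested probes. Leaving out 1 array in turn gave -0.04 to 0.13. With the replicate block, the median was 0.04 and the smallest adjusted p of a respiratory chain gene 0.216 (limma), with 0 calls for these genes. Among uncalled values of 29 named genes the sign changed 39 times. Counts over everything tested, 73 that rose and 33 that fell, depended more on the setting: 166 and 80 with normexp, 135 and 57 with trend and robust variance, 294 and 190 with array weights, 23 and 9 with the slide row as a covariate, 0 and 1 without the filter on dim probes, and 0 and 0 with the replicate block. Leaving out 1 array gave 0 to 36 rises and 0 to 16 falls.

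The number of arrays, 3 per group, limits the precision, and an exact permutation test cannot give a p below 0.1. Mitochondrial DNA-encoded subunits, protein and respiration were not analysed here. Probes that share sequence with pseudogenes or paralogs of these genes were not examined. The slide's second row held only DOX replicates 2 and 3, and the row as a covariate gave a median of 0.04.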
